A study of Mus musculus with 10 samples.

Results

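The 44 interferon-stimulated genes described here are a list chosen by gene symbol, and all 44 were found among the 54152 lines of the deposited expression table. The study sequenced 10 RNA libraries, in 6 groups, from organoids of mouse oviduct epithelium, which the methods place in the isthmus. F/F_Con and F/F_Diff (2 libraries each) came from Cdc42 f/f mice, in which loxP sites flank exon 2 of Cdc42 but no Cre is present. PgrKO_Con and PgrKO_Diff (2 libraries each) came from PgrCre/+ Cdc42 f/f mice, in which Cre made from the progesterone receptor gene deletes Cdc42 in the cells of the reproductive tract that express that gene, non-epithelial cells included. AdKO_Con and AdKO_Diff (1 library each) were Cdc42 f/f organoids given Cre in culture by the adenovirus Ad5-CMV-Cre, and no library of organoids infected with a virus lacking Cre was among the 10. The Diff groups were treated with 10 nM estrogen (E2) and 1 μM DBZ, which blocks the γ-secretase cleavage of Notch receptors, for 6 days, and the Con groups were not. All groups therefore carry the floxed allele, the PgrKO groups also carry 1 Cre allele at Pgr, and the age of the mice behind the organoids is not given in the sources used here.

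Interferon-stimulated genes are switched on when a secreted interferon binds its receptor on the cell surface and the kinases JAK1 and TYK2 phosphorylate STAT proteins. STAT2 joins IRF9 in the factor ISGF3, which binds the interferon-stimulated response element (ISRE) in the promoters of its targets, whereas interferon γ acts through another element, GAS. The products sense foreign RNA and DNA, degrade or bind viral RNA, modify proteins with ISG15 or ADP-ribose and attack vacuoles that hold pathogens. Many of them are kept at a low tonic level without infection. In the epithelium of the female reproductive tract, interferon ε, encoded by Ifne, is made constitutively and varies with hormones.

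A RefSeq promoter window of 300 bases (250 before to 50 after the annotated start, GRCm38.p6) could be matched to 32 of the 44 members. The letters GAAANNGAAA, the core of the ISRE, were read on both strands and lay in the windows of 17 of these 32 genes (53.1%), against 3.99% of all 27025 genes with a window. The letters TTCNNNGAA of the GAS element lay in 7 of the 32 (21.9%), against 9.55% of all genes, and the 2 patterns can overlap. Of 26 ISRE matches, 23 began before the start. Stretches around the matches are printed for the 4 members that were higher in PgrKO_Con than in F/F_Con at the threshold used below (Ifit1, Ifit3, Ifit3b and Gbp3) and for Isg15 and Gbp2, which fell in F/F_Diff, and Bst2, which passed in no comparison. Capitals mark every base of a match, on the gene's strand, so that TTTC runs are matches on the opposite strand.
Ifit1: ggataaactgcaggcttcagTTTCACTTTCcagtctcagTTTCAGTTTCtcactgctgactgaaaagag
Ifit3: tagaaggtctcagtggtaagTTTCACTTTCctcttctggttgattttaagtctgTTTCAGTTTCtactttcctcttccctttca
Ifit3b: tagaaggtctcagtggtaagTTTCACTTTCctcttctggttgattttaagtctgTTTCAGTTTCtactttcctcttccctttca
Gbp3: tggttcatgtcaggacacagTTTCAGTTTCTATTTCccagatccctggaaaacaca
Isg15: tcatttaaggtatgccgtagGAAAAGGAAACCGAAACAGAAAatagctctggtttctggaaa
Gbp2: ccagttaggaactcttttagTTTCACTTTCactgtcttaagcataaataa
Bst2: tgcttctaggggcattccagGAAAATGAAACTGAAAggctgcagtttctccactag
They lie at chr19:34640765-34640833, chr19:34583353-34583436, chr19:34607749-34607832 and chr3:142559979-142560034 (all plus strand), chr4:156200855-156200916 (minus strand), chr3:142620584-142620633 (plus strand) and chr8:71537567-71537622 (minus strand). The printed bases of Ifit3 and Ifit3b are the same, and reads of these neighboring copies may have been shared between them. A match describes letters only, and binding was not measured.

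The values are FPKM, fragments scaled to exon length and to a library size, so that levels can be set side by side between genes. A gene was kept where the mean of some group reached 1 FPKM, which held for 15817 genes and for all 44 members. However, Herc6, Ifit1, Ifit2, Ifit3, Ifit3b and Oas3 (6 members) stayed below 1 FPKM in both F/F groups and passed through the PgrKO or AdKO groups where they were higher. The mean over the 10 libraries ran from 0.480 FPKM (Oas3) to 146 FPKM (Lgals3bp), with a median of 5.74 FPKM, and 11 members had under 20 reads in some library. Groups were compared on log2(FPKM + 1) with limma, and a member passed at a Benjamini-Hochberg adjusted p under 0.05 over all 15817 genes. Fold changes on this scale understate the change of genes near 1 FPKM. Nothing says whether the 2 libraries of a group came from separate mice or cultures, so the spread behind each p-value is that between the libraries, which may be technical.

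The members were highest in the undifferentiated PgrKO organoids. The median member stood at 3.48 and 3.44 on the log2(FPKM + 1) scale in the 2 PgrKO_Con libraries, 2.87 and 2.36 in F/F_Con and 3.01 in AdKO_Con. After E2 and DBZ it stood at 2.59 and 2.27 in PgrKO_Diff, 1.97 and 1.89 in F/F_Diff and 2.04 in AdKO_Diff, below every Con library of the same genotype. The median over all genes stayed between 2.56 and 2.67 in the 10 libraries. Of the 4 groups with 2 libraries, PgrKO_Con had the highest mean for 38 of the 44 members, as for 14.5% of all genes, and F/F_Diff the lowest for 30, as for 35.5% of all genes. The highest of the 10 libraries was a PgrKO_Con library for 35 members, as for 8.97% of all genes. These counts include members that passed the filter only through the PgrKO or AdKO groups, all 6 of them in the 38. None is therefore set against its share.

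**Figure D1:**
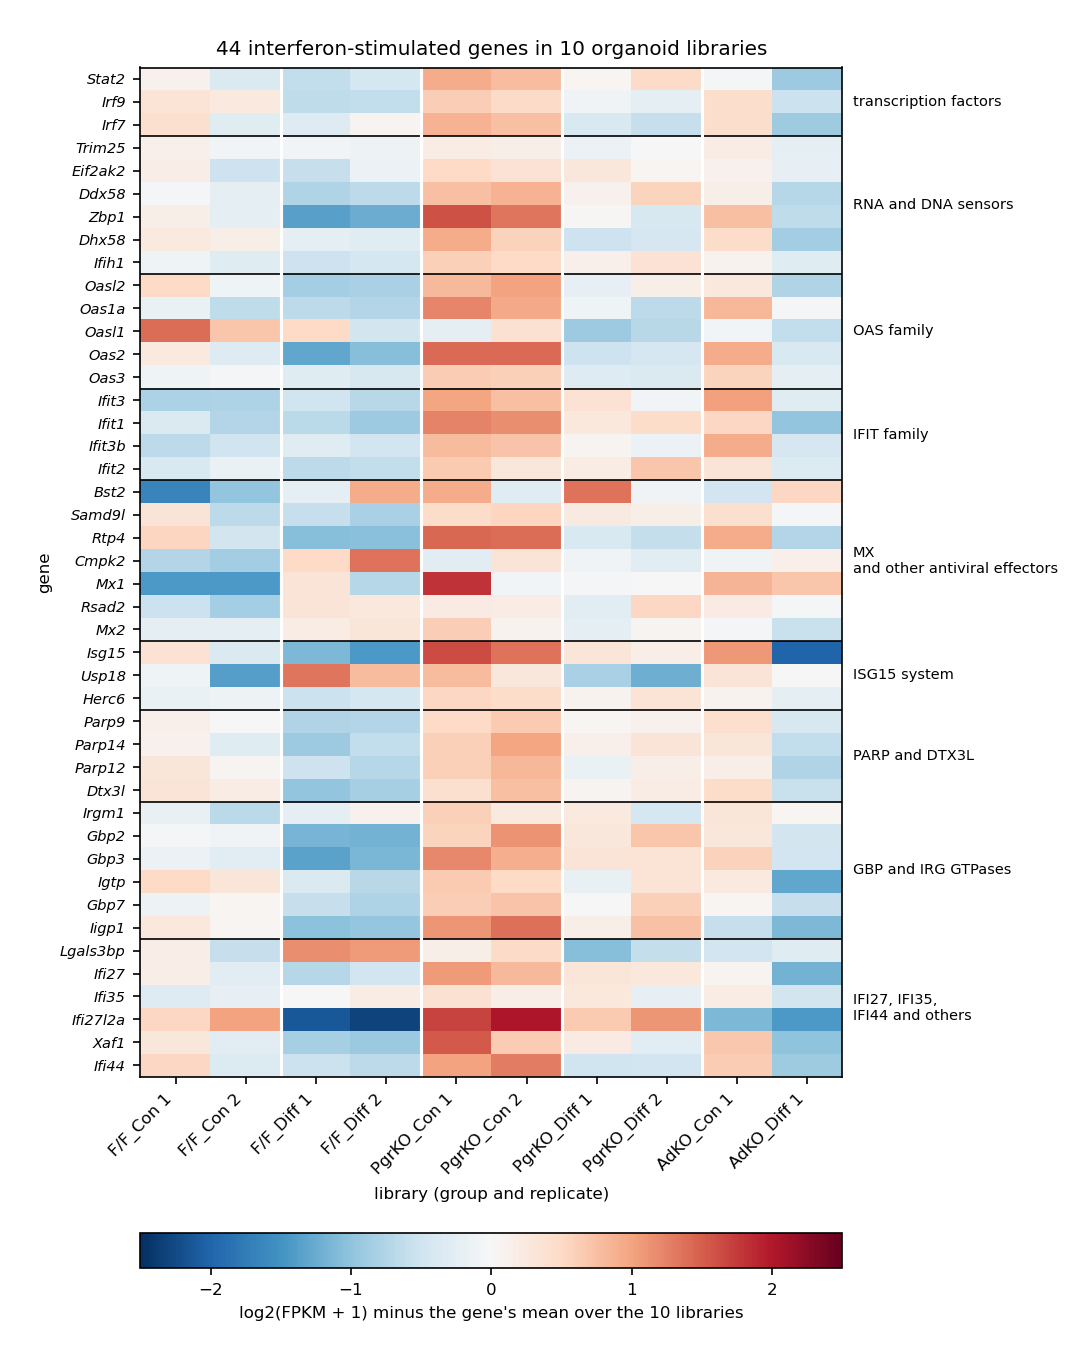
Each row is 1 of the 44 members, grouped by role, and each column 1 of the 10 libraries; color gives log2(FPKM + 1) minus the gene's mean over the 10 libraries (red higher, blue lower). The 2 PgrKO_Con columns are red in most rows, the F/F_Diff and AdKO_Diff columns are mostly blue, and Cmpk2, Usp18 and Lgals3bp are red in F/F_Diff.

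Cdc42, a small GTPase and the targeted gene, was at 118 to 133 FPKM in the 4 F/F libraries, 104 to 134 in the 4 PgrKO libraries and 81.6 and 87.9 in the AdKO libraries. Since only exon 2 is deleted and the table has 1 value per gene, these levels do not show how much of the transcript was recombined. Markers of other cells differed between the genotypes. The sum of 13 leukocyte and macrophage markers such as Ptprc, Lyz2 and Cd74 came to 232 to 241 FPKM in F/F_Con and 73.9 to 190.3 in F/F_Diff, with 0 to 5 of the 13 at 0 FPKM, to 181 and 205 in AdKO, with 5 or 6 at 0, and to 353, 1215, 385 and 1620 in PgrKO_Con 1, PgrKO_Con 2, PgrKO_Diff 1 and PgrKO_Diff 2, with none at 0. The sum of 10 fibroblast markers was 3.91 to 64.3 FPKM in the F/F and AdKO libraries and 143 to 423 in PgrKO. The sum of 8 endothelial markers was 0.446 to 2.95 FPKM and 9.98 to 40.5 FPKM in the same libraries. T and NK cell markers were at or near 0 (0 to 0.0675 FPKM in all) and epithelial markers summed to 1969 to 5322 FPKM with none at 0 in any library. The ciliated cell markers of F/F summed to 227 and 234 FPKM before treatment and 929 and 1092 FPKM after it, and to 54.3 to 241 FPKM in the other genotypes. In bulk RNA, fewer cells of a type and less RNA per cell cannot be told apart, and the part of these cells in the members' levels was not tested. Of the 44 members, 28 were higher in the PgrKO_Con library with the lower leukocyte sum, and 26 were higher in the PgrKO_Diff library with the higher leukocyte sum. Each count compares 2 single libraries over genes that are not independent, and no share over all genes is given beside it. A link between the members and the leukocyte sums was not tested.

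**Figure D2:**
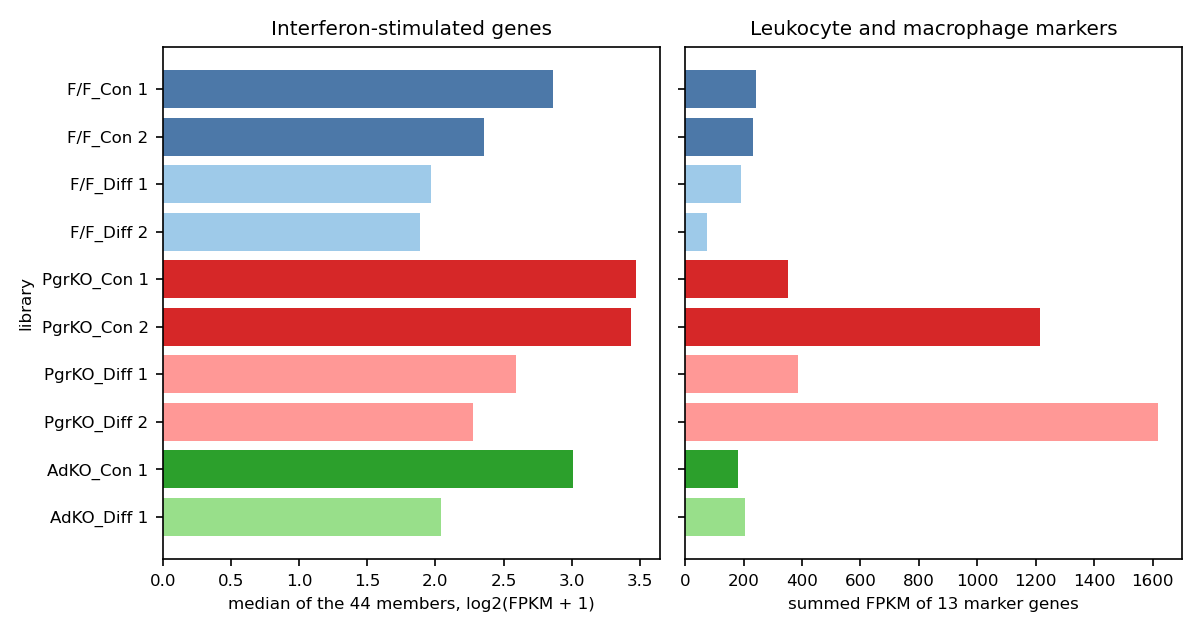
Left, bars give the median of the 44 members in each of the 10 libraries on the log2(FPKM + 1) scale; right, bars give the summed FPKM of 13 leukocyte and macrophage markers. The leukocyte sums of 1215 and 1620 FPKM in PgrKO_Con 2 and PgrKO_Diff 2 stand apart from the others. The member medians are 3.48 and 3.44 in PgrKO_Con 1 and 2 and 2.59 and 2.27 in PgrKO_Diff 1 and 2.

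To describe the genotypes before differentiation, PgrKO_Con was compared with F/F_Con. The 2 groups differ in the Cre allele at Pgr as well as in Cdc42, and these cannot be told apart here. Of the 44 members, 43 were above 0 (log2 fold change), with a median of 0.87 against −0.004 over all genes tested, and 41 had both PgrKO_Con libraries above both F/F_Con libraries, as 28.2% of all genes did. Only 4 members passed the test as higher, Ifit1, Ifit3, Ifit3b and Gbp3, and none as lower, whereas 0.266% of all genes passed as higher and 0.354% as lower. Ifit1, Ifit3 and Ifit3b are among the 6 members that entered the test through the groups where they are high, so the count is not set against that share. At an unadjusted p under 0.05, 35 members were higher and 0 lower, where 10.8% and 11.0% of all genes were. The 35, and the 41 without overlap, include all 6 of those members, so neither count is set against its share. The 4 calls were close to the threshold (adjusted p of 0.0442 to 0.048), and voom on the recovered reads called 0 members. Without any 1 of the 4 F/F and 2 PgrKO_Con libraries 0 members passed, and without either PgrKO_Diff library 3 passed. With PgrKO replicate 2 of both states left out, 0 passed and 43 of 44 were still above 0, with a median of 0.87. Oasl1 was the only member on the other side. In the same comparison 11 of 13 leukocyte markers (median 2.76) and all 10 fibroblast markers (median 2.99) were also above 0, Vim and Cdh5 passed as higher, and all 5 ciliated cell markers were below 0, and their part in the members' differences was not tested.

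In the differentiated organoids, PgrKO_Diff was compared with F/F_Diff. Here 21 members were higher and 2 lower, where 11.7% of all genes were higher and 15.4% lower. Among the 21, Ifit1, Ifit2, Ifit3 and Herc6 entered the test through the groups where they are high. The 21 are therefore not set against that share. The median was 0.65, against 0.07 over all genes, with 34 members above 0 and 10 below. Both PgrKO_Diff libraries were above both F/F_Diff libraries for 30 members, as for 35.8% of all genes. Voom called 19 members higher and 2 lower, and 21 of the 23 calls were shared. The calls rested on single libraries in part, since leaving out F/F_Diff replicate 2 left 5 members higher, leaving out F/F_Diff replicate 1 left 8, leaving out PgrKO_Diff replicate 2 left 11, and 7 were higher with PgrKO replicate 2 of both states left out. In the same comparison 7 of 10 fibroblast markers and Lyz2 and Cd74 were higher and all 5 ciliated cell markers were lower, and their part in the members' differences was not tested. In both states, 29 members were higher in PgrKO with no overlap between the groups, as 18% of all genes were. The 29, and the 30 above, include Ifit1, Ifit2, Ifit3, Ifit3b and Herc6, which entered through those groups. Neither count is therefore set against its share.

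**Figure D3:**
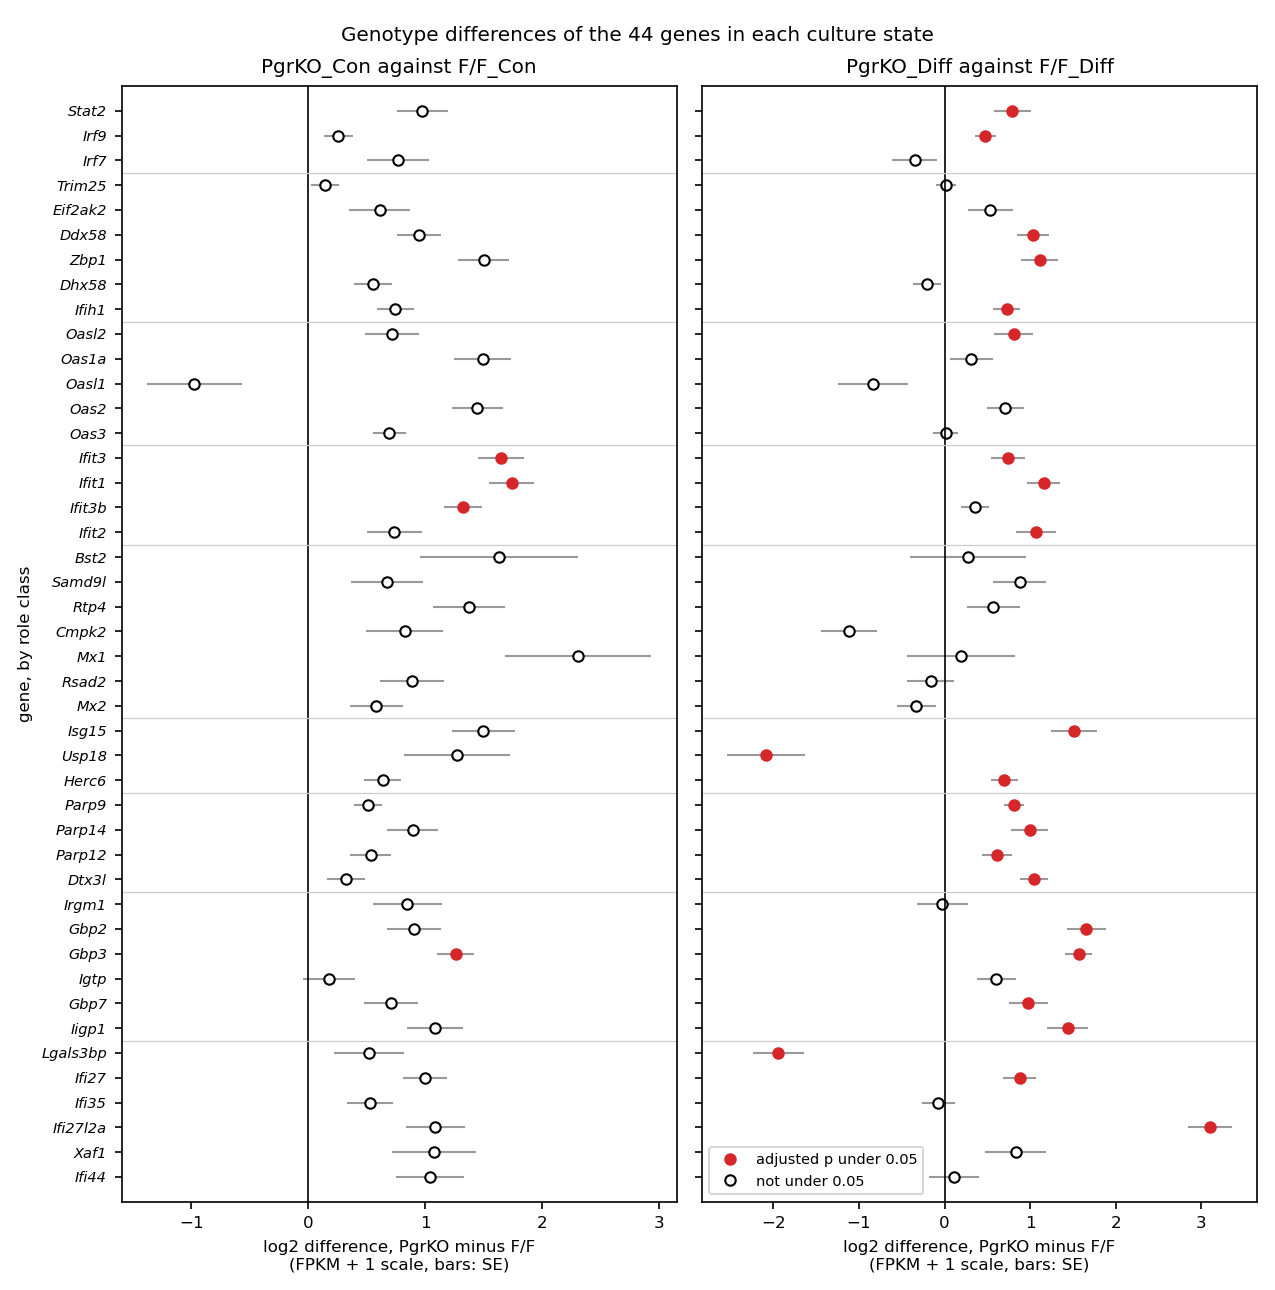
Points give the log2 difference between PgrKO and F/F (FPKM + 1 scale) of each of the 44 members, before (left) and after (right) E2 and DBZ, with the standard error as bars; filled points passed the adjusted p. On the left 43 points lie right of 0 and 4 are filled; on the right 23 are filled, and Usp18 and Lgals3bp are the filled points on the left of 0.

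The response to E2 and DBZ in F/F organoids was a fall of many members and a rise of a few. In F/F_Diff against F/F_Con, 13 members were lower, as 6.89% of all genes were, and 3 were higher, as 12.4% of all genes were. The median was −0.50 against −0.02 over all genes, 33 members were below 0, and 29 had both F/F_Diff libraries below both F/F_Con libraries, as 34.4% of all genes did. In the same comparison all 5 ciliated cell markers were higher (median 2.61), and their part in the members' response was not tested. The 13 were Irf9, Zbp1, Oas2, Oasl2, Isg15, Parp9, Parp12, Dtx3l, Gbp2, Gbp3, Igtp, Iigp1 and Ifi27l2a, and the 3 were Cmpk2, Usp18 and Lgals3bp. With replicate 2 of either F/F group left out no member was lower, and with replicate 1 of either left out 4 members were lower.

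In PgrKO_Diff against PgrKO_Con no gene passed the test in either direction (0% of all genes tested), and so no member did. Nevertheless, 43 of the 44 members were below 0, with a median of −0.71 against 0.01 over all genes. Both PgrKO_Diff libraries were below both PgrKO_Con libraries for 36 members, as for 16.4% of all genes. In this limma fit 27 members were lower and 0 higher at an unadjusted p under 0.05, against 3.66% and 3.79% of all genes, and voom also called 0. Lower in both genotypes with no overlap were 27 members, as were 7.04% of all genes. The 36 include Ifit1, Ifit3, Ifit3b, Herc6 and Oas3, which passed the filter only through the PgrKO or AdKO groups. The 43 below 0 include these and Ifit2, which passed in the same way. Ifit1, Ifit3, Ifit3b and Oas3 are among the 27 at an unadjusted p, and Herc6 and Oas3 among the 27 lower in both genotypes. None of these counts is therefore set against its share. With PgrKO replicate 2 of both states left out, 42 were below 0. Same-numbered PgrKO libraries deviated together (correlation 0.53 over all genes), and the limma fit did not pair them.

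The 2 responses share no library and were compared by their difference, PgrKO minus F/F. It was higher for 1 member and lower for 2, as for 0.499% and 3.91% of all genes. The responses in F/F and in PgrKO were −2.99 and −0.97 for Ifi27l2a, 1.80 and −1.55 for Usp18, and 1.32 and −1.14 for Lgals3bp. These 3 calls had adjusted p of 0.045 to 0.0484, and 0 passed without any 1 of the 8 F/F and PgrKO libraries or in voom. The median of the difference was −0.15 over the members and 0.07 over all genes. Across the 44 members Pearson's r of the 2 responses was 0.28, a description over genes that are not independent.

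**Figure D4:**
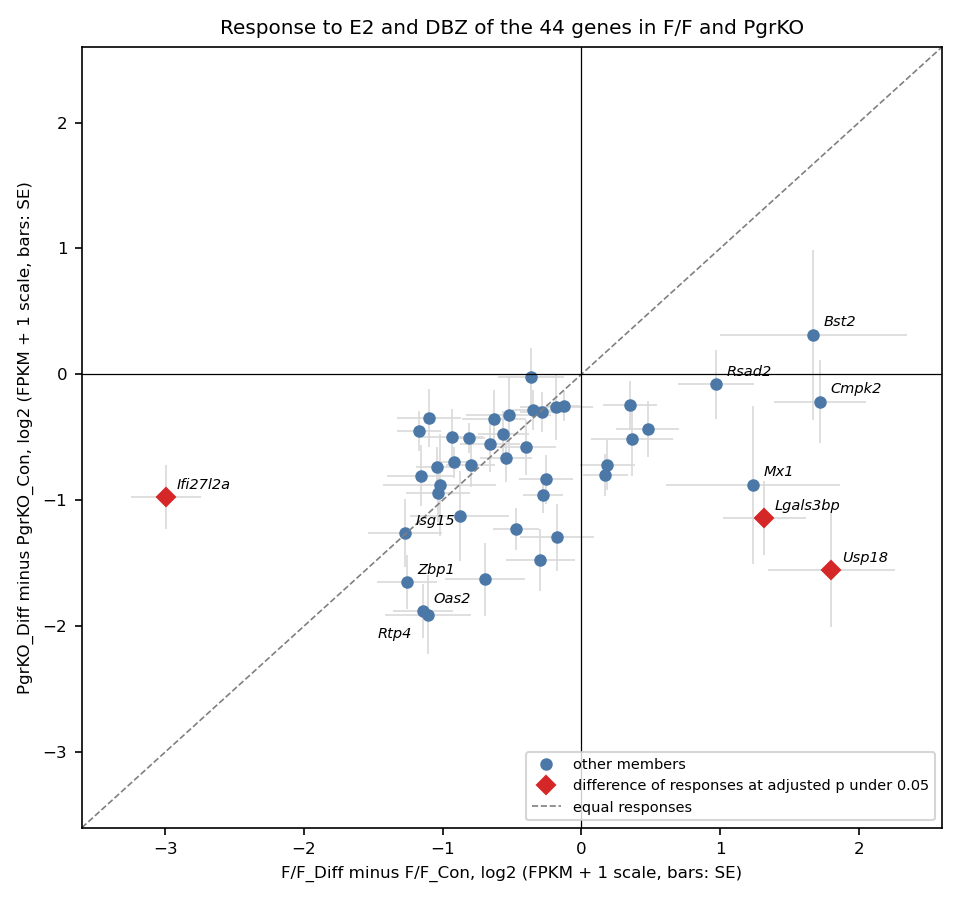
Each of the 44 members is placed by its log2 response to E2 and DBZ in F/F (horizontal) and in PgrKO (vertical), both on the FPKM + 1 scale, with standard errors as bars and a dashed line of equal responses. Most points lie in the lower left, and the 3 red diamonds, Ifi27l2a, Lgals3bp and Usp18, are those whose responses differed at an adjusted p under 0.05.

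The AdKO libraries, in which Cre came by virus, give 1 value per state, and the lone library was assumed to vary like the other groups. In AdKO_Con against F/F_Con no member passed (0 of 44, with 12 higher and 2 lower at an unadjusted p under 0.05 in limma, against 8.24% and 8.02% of all genes, and 0 in voom), as 0.0506% of all genes did. Of the members 38 were above 0 (median 0.40), 34 were above both F/F_Con libraries (38.9% of all genes), and 22 lay between the F/F_Con and the PgrKO_Con libraries, as 7.21% of all genes did. The 34 include all 6 members that passed the filter only through the PgrKO or AdKO groups, and the 12 and the 22 some of them. These counts are therefore not set against their shares. The leukocyte sum of AdKO_Con (181 FPKM) was below those of both F/F_Con libraries. In AdKO_Diff against F/F_Diff no member passed either (0 in voom), while 6.16% of all genes did. At an unadjusted p under 0.05, 5 members were higher and 5 lower, against 10.6% and 15.2% of all genes. The median was 0.08, with 20 members above both F/F_Diff libraries, as 41.4% of all genes were, and 19 below both, as 40.0% of all genes were, so that these shares were near the background. Between the 2 AdKO libraries, 16 members were at least 2-fold lower in AdKO_Diff (2.53% of all genes) and 0 were at least 2-fold higher (2.11% of all genes), on the FPKM + 1 scale and with no test, and 41 of 44 were below 0 with a median of −0.84. The 16 include Ifit1, Ifit3 and Ifit3b, which passed the filter only through the PgrKO or AdKO groups. The 41 include all 6 such members. Neither count is therefore set against a share. An effect of the virus itself and loss of Cdc42 cannot be told apart in these libraries.

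Among the 3 transcription factors, Irf9, the DNA-binding subunit of ISGF3, was at 8.96 and 8.29 FPKM in the untreated F/F libraries, 11.1 and 9.93 in the untreated PgrKO libraries and 9.75 in the untreated AdKO library, and after treatment at 4.06 and 4.12 (F/F), 6.41 and 5.78 (PgrKO) and 4.42 FPKM (AdKO). Every Con library of Irf9 was above every Diff library. It fell in F/F_Diff by 0.92 (SE 0.12, adjusted p = 0.0106) on the log2 scale and was higher in PgrKO_Diff than in F/F_Diff (0.48, SE 0.12, adjusted p = 0.0362). Stat2, its partner in ISGF3, was at 9.91 and 6.89 (F/F), 18.2 and 16.2 (PgrKO) and 8.98 FPKM (AdKO) in Con, and at 5.62 and 6.47 (F/F), 9.54 and 13.1 (PgrKO) and 4.42 FPKM (AdKO) in Diff. The PgrKO_Con libraries of Stat2 stood above all others, and the difference passed between the Diff groups (0.79, SE 0.22, adjusted p = 0.0425) and not between the Con groups (0.97, SE 0.22, adjusted p = 0.0897). Irf7, which drives the interferon genes themselves, passed no test, with 10.2 and 9.29 FPKM in PgrKO_Con against 7.03 and 3.94 in F/F_Con.

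Of the 6 sensors of RNA and DNA, 3 were higher in PgrKO_Diff than in F/F_Diff, namely Ddx58 (RIG-I, 1.03, SE 0.19), Ifih1 (MDA5, 0.73, SE 0.16) and Zbp1, a sensor of Z-form nucleic acids. Zbp1 was at 2.69 and 1.88 FPKM in the untreated F/F libraries, 9.04 and 7.49 in the untreated PgrKO libraries and 4.62 in the untreated AdKO library, and after treatment at 0.310 and 0.419 (F/F), 2.40 and 1.55 (PgrKO) and 1.15 FPKM (AdKO). Its F/F_Diff libraries were the lowest and its PgrKO_Con libraries the highest, and it fell in F/F_Diff by 1.26 (SE 0.22, adjusted p = 0.016). The 2 most abundant sensors passed in no comparison. Trim25, the ubiquitin ligase that activates RIG-I, was at 22.8 and 19.8 (F/F), 23.9 and 23.3 (PgrKO) and 23.7 FPKM (AdKO) in Con, and at 19.8 and 19.1 (F/F), 18.8 and 20.6 (PgrKO) and 17.3 FPKM (AdKO) in Diff. Eif2ak2 (PKR), the kinase that stops translation on double-stranded RNA, was at 19.6 and 11.8 FPKM in the untreated F/F libraries, 24.8 and 22.8 in the untreated PgrKO libraries and 18.7 in the untreated AdKO library, and after treatment at 11.3 and 15.6 (F/F), 21.5 and 18.1 (PgrKO) and 15.0 FPKM (AdKO), with F/F_Con replicates that span the F/F_Diff ones. Dhx58 (LGP2), a regulator of the other helicases, passed in none, with log2 differences of 0.55 (SE 0.17) between the Con groups and −0.20 (SE 0.17) between the Diff groups.

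The 5 members of the OAS family make or resemble the enzymes that make oligoadenylates, which activate RNase L. Oas1a was at 5.93 and 4.02 (F/F), 17.3 and 14.1 (PgrKO) and 12.8 FPKM (AdKO) in Con, and at 3.92 and 3.70 (F/F), 6.23 and 3.94 (PgrKO) and 6.49 FPKM (AdKO) in Diff. The PgrKO_Con libraries and the AdKO_Con library were above the other 7 libraries, and the difference between the Con groups was 1.49 (SE 0.25, adjusted p = 0.0613); its reads may be shared with close paralogs of the cluster. Oasl2 was at 20.6 and 13.2 FPKM in the untreated F/F libraries, 25.9 and 29.8 in the untreated PgrKO libraries and 17.4 in the untreated AdKO library, and after treatment at 7.45 and 7.68 (F/F), 12.3 and 16.0 (PgrKO) and 8.01 FPKM (AdKO), fell in F/F_Diff by 1.03 (SE 0.23, adjusted p = 0.0303) and was higher in PgrKO_Diff than in F/F_Diff (0.81, SE 0.23, adjusted p = 0.0466). Oas2 also fell in F/F_Diff (3.94 and 2.33 to 0.691 and 0.997 FPKM) and had 10.0 and 10.1 FPKM in PgrKO_Con. Oas3 was the least abundant member, at 1.19 and 1.16 FPKM in PgrKO_Con and at most 0.378 FPKM in all F/F and Diff libraries. Oasl1, known in mice for limiting the translation of Irf7, went the other way, at 15.8 and 9.35 (F/F), 4.39 and 7.37 (PgrKO) and 5.14 FPKM (AdKO) in Con, and at 8.08 and 3.66 (F/F), 2.38 and 2.95 (PgrKO) and 3.17 FPKM (AdKO) in Diff, highest in F/F_Con, and its difference between the Con groups did not pass (−0.97, SE 0.41, adjusted p = 0.237).

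The IFIT genes, whose products bind viral RNA, lie near each other on chromosome 19 of mm10 (Ifit1 at chr19:34640871-34650009, Ifit3 at chr19:34583531-34588731, Ifit3b at chr19:34607970-34613401). All 4 were below 1 FPKM in both F/F groups and entered the test through the PgrKO or AdKO groups, where they are high. Ifit1 was at 0.884 and 0.462 FPKM in the untreated F/F libraries, 4.71 and 4.38 in the untreated PgrKO libraries and 2.46 in the untreated AdKO library, and after treatment at 0.515 and 0.279 (F/F), 1.91 and 2.31 (PgrKO) and 0.222 FPKM (AdKO). All 4 PgrKO libraries were above all 4 F/F libraries, with log2 differences of 1.74 (SE 0.19, adjusted p = 0.0442) before and 1.16 (SE 0.19, adjusted p = 0.00931) after E2 and DBZ. Ifit3 was at 0.608 and 0.620 (F/F), 4.47 and 3.67 (PgrKO) and 4.69 FPKM (AdKO) in Con, and at 0.980 and 0.707 (F/F), 2.55 and 1.66 (PgrKO) and 1.26 FPKM (AdKO) in Diff, with differences of 1.65 (SE 0.20, adjusted p = 0.0469) and 0.74 (SE 0.20, adjusted p = 0.0394). Here AdKO_Con was the highest library of all. Ifit3b was at 0.223 and 0.361 FPKM in the untreated F/F libraries, 2.32 and 2.15 in the untreated PgrKO libraries and 2.65 in the untreated AdKO library, and after treatment at 0.547 and 0.370 (F/F), 1.00 and 0.725 (PgrKO) and 0.422 FPKM (AdKO), with 1.33 (SE 0.17, adjusted p = 0.048) in Con and 0.35 (SE 0.17, adjusted p = 0.164) in Diff. Ifit2 passed in Diff (1.07, SE 0.24) and not in Con, where its difference was 0.73 (SE 0.24). The levels are low, and Ifit1 rested on 17 to 42 reads per F/F_Con library and 165 to 178 per PgrKO_Con library. No IFIT gene passed in the F/F response.

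**Figure D5:**
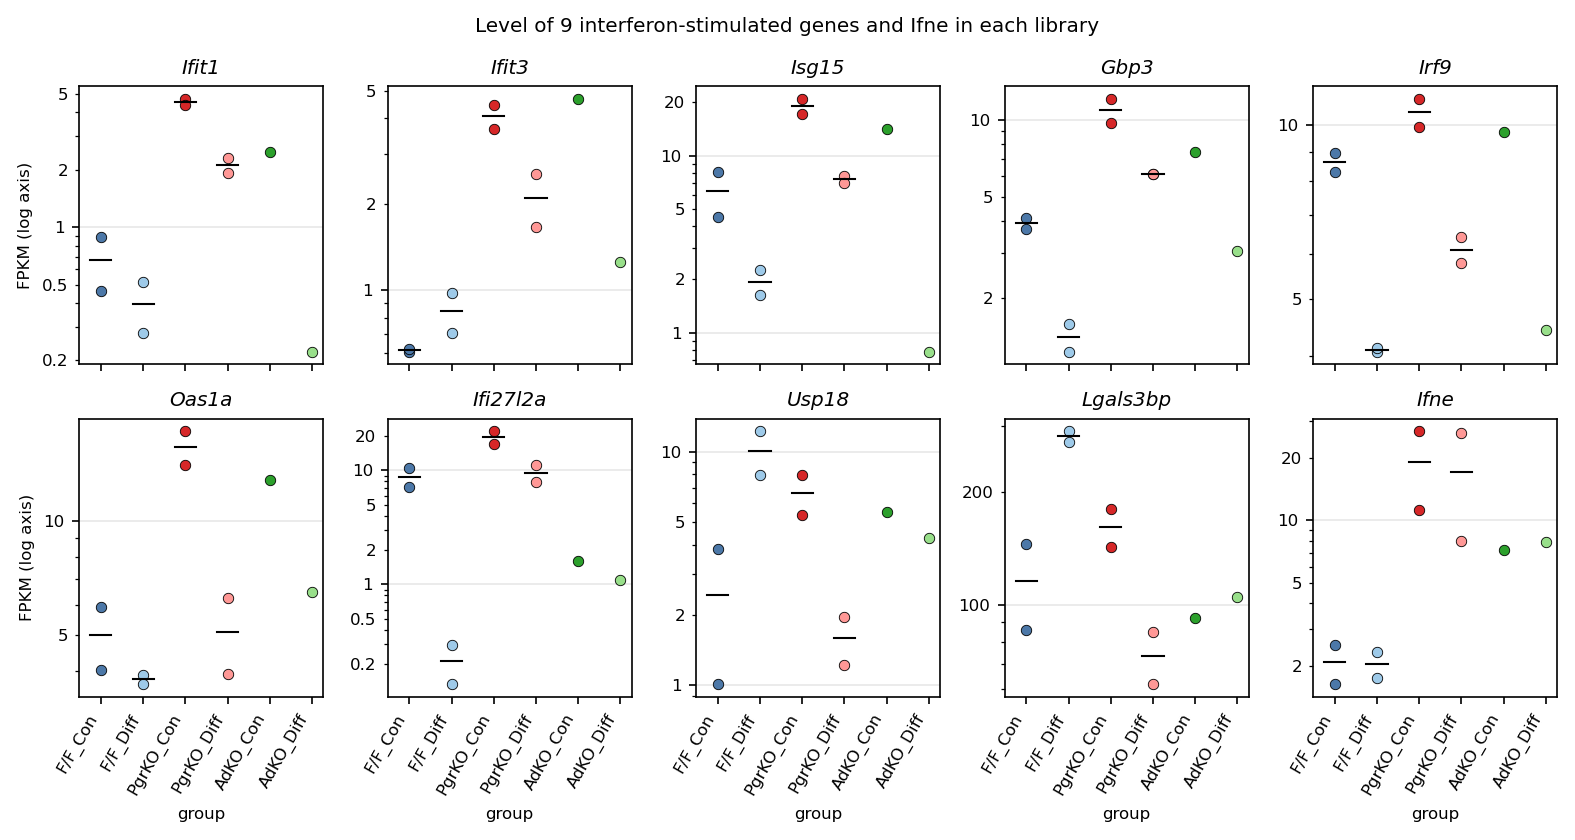
Points give the FPKM of 9 members and of Ifne in each library by group, on log axes, and horizontal lines the mean of 2 libraries. Ifit1, Gbp3 and Ifne lie higher in all PgrKO libraries than in the F/F libraries of the same state, Irf9 and Isg15 are lower in the Diff groups of each genotype, and Usp18 and Lgals3bp are high in F/F_Diff and low in PgrKO_Diff.

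The 7 MX and other antiviral effectors did not follow the majority in F/F organoids. Their median response was 0.97, with 5 of 7 above 0, and Cmpk2, a mitochondrial nucleotide kinase, rose from 2.32 and 2.01 FPKM in F/F_Con to 6.73 and 13.1 FPKM in F/F_Diff (1.72, SE 0.33, adjusted p = 0.0204). In PgrKO it was at 3.54 and 5.91 and 4.13 and 3.53 FPKM, and in AdKO at 4.19 and 5.03. Rsad2 (viperin), which lies beside Cmpk2 on chromosome 12, went from 1.07 and 0.666 to 2.71 and 2.57 FPKM in F/F without passing (0.97, SE 0.28, adjusted p = 0.0573). Bst2 (tetherin), which holds budding virus on the cell surface, was at 36.3 and 57.4 (F/F), 220.0 and 93.9 (PgrKO) and 82.1 FPKM (AdKO) in Con, and at 98.5 and 222 (F/F), 297 and 108 (PgrKO) and 164 FPKM (AdKO) in Diff. The Bst2 replicates differed more than 2-fold in 3 of the 4 groups, and none of its differences passed. Samd9l, an inhibitor of translation, was at 19.5 and 9.37 FPKM in the untreated F/F libraries, 21.6 and 22.9 in the untreated PgrKO libraries and 20.6 in the untreated AdKO library, and after treatment at 9.97 and 8.37 (F/F), 18.1 and 17.2 (PgrKO) and 14.8 FPKM (AdKO), and passed in none. Mx1, a dynamin-like GTPase, was at 0.162 and 0.172 (F/F), 10.1 and 2.01 (PgrKO) and 4.65 FPKM (AdKO) in Con, and at 2.93 and 0.928 (F/F), 2.11 and 2.19 (PgrKO) and 4.13 FPKM (AdKO) in Diff. Both F/F_Con libraries of Mx1 were below all 8 others, but the PgrKO_Con libraries differed widely and the difference from F/F_Con did not pass (2.31, SE 0.63, adjusted p = 0.121). Rtp4 was at 18.5 and 17.8 FPKM in PgrKO_Con and 9.41 and 4.23 in F/F_Con (1.37, SE 0.31, adjusted p = 0.091). Mx2, a polymorphic pseudogene in the annotation, stayed under 2 FPKM.

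In the ISG15 system, Isg15, the ubiquitin-like protein attached to others, was at 8.13 and 4.49 FPKM in the untreated F/F libraries, 21.01 and 17.1 in the untreated PgrKO libraries and 14.1 in the untreated AdKO library, and after treatment at 2.26 and 1.63 (F/F), 7.72 and 6.999 (PgrKO) and 0.782 FPKM (AdKO). Each Diff group was below the Con group of its genotype, and PgrKO_Diff lay near F/F_Con. It fell in F/F_Diff by 1.27 (SE 0.27, adjusted p = 0.026) and was higher in PgrKO_Diff than in F/F_Diff (1.51, SE 0.27, adjusted p = 0.0113). In PgrKO_Con the difference did not pass (1.5, SE 0.27, adjusted p = 0.0648). Between the 2 AdKO libraries Isg15 had a log2 ratio of −3.08, from 129 reads to 7. Usp18, which removes ISG15 and blocks the interferon receptor, was at 3.84 and 1.01 (F/F), 7.96 and 5.33 (PgrKO) and 5.51 FPKM (AdKO) in Con, and at 12.2 and 7.95 (F/F), 1.96 and 1.22 (PgrKO) and 4.27 FPKM (AdKO) in Diff. It rose in F/F_Diff (1.80, SE 0.46, adjusted p = 0.0422), although the F/F_Con replicates differed from 1.01 to 3.84 FPKM, and was lower in PgrKO_Diff than in F/F_Diff (−2.09, SE 0.46, adjusted p = 0.0213). The difference of its responses was −3.36 (SE 0.64, adjusted p = 0.0484). Herc6, the ISG15 ligase of mice, was at 0.493 and 0.528 FPKM before and 0.155 and 0.226 FPKM after treatment in F/F, and was higher in PgrKO_Diff (0.70, SE 0.16).

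The 4 members of the PARP and DTX3L class, which add ADP-ribose or ubiquitin to proteins, all passed in at least 1 comparison. All 4 were higher in PgrKO_Diff than in F/F_Diff, and 3 fell in F/F_Diff. Parp9 was at 10.6 and 9.57 FPKM in the untreated F/F libraries, 13.9 and 15.6 in the untreated PgrKO libraries and 13.2 in the untreated AdKO library, and after treatment at 5.28 and 5.33 (F/F), 9.90 and 10.3 (PgrKO) and 6.98 FPKM (AdKO). It fell by 0.81 (SE 0.12, adjusted p = 0.0115) in F/F_Diff and differed by 0.82 (SE 0.12, adjusted p = 0.0061) between the Diff groups. Dtx3l, the ubiquitin ligase bound to PARP9, was at 9.33 and 8.33 (F/F), 9.93 and 12.8 (PgrKO) and 10.3 FPKM (AdKO) in Con, and at 3.13 and 3.61 (F/F), 7.62 and 8.41 (PgrKO) and 4.63 FPKM (AdKO) in Diff, fell by 1.17 (SE 0.16, adjusted p = 0.011) and differed by 1.05 (SE 0.16, adjusted p = 0.00722) in the same comparisons. The 2 genes overlap head to head on opposite strands of chromosome 16, and since the use of strand in counting is not given in the sources used here, reads of the overlap may count for both. Parp14 was at 9.61 and 6.96 FPKM in the untreated F/F libraries, 13.9 and 18.6 in the untreated PgrKO libraries and 11.2 in the untreated AdKO library, and after treatment at 4.26 and 5.44 (F/F), 9.85 and 11.4 (PgrKO) and 5.47 FPKM (AdKO), with the Diff libraries of F/F and AdKO below all others, and differed by 1.00 (SE 0.22, adjusted p = 0.0215) between the Diff groups. Parp12 fell from 10.9 and 9.01 to 5.75 and 4.86 FPKM in the F/F response (−0.80, SE 0.18, adjusted p = 0.0298).

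The guanylate-binding proteins and the immunity-related GTPases attack vacuoles of pathogens and are known as targets of interferon γ. Gbp3 was at 4.14 and 3.73 (F/F), 12.1 and 9.71 (PgrKO) and 7.47 FPKM (AdKO) in Con, and at 1.24 and 1.59 (F/F), 6.12 and 6.14 (PgrKO) and 3.05 FPKM (AdKO) in Diff. All PgrKO libraries and AdKO_Con were above all F/F libraries, with differences of 1.26 (SE 0.16, adjusted p = 0.048) in Con and 1.57 (SE 0.16, adjusted p = 0.00322) in Diff, and Gbp3 fell in F/F_Diff by 1.04 (SE 0.16, adjusted p = 0.0125). Gbp2 was at 7.42 and 7.17 FPKM in the untreated F/F libraries, 11.7 and 17.9 in the untreated PgrKO libraries and 9.56 in the untreated AdKO library, and after treatment at 2.91 and 2.84 (F/F), 9.58 and 13.1 (PgrKO) and 5.33 FPKM (AdKO), fell in F/F_Diff by 1.10 (SE 0.23, adjusted p = 0.0251) and differed by 1.66 (SE 0.23, adjusted p = 0.0055) between the Diff groups. Irgm1, a regulator of the other GTPases, was at 8.82 and 5.96 (F/F), 15.8 and 12.2 (PgrKO) and 12.7 FPKM (AdKO) in Con, and at 8.42 and 11.1 (F/F), 12.2 and 7.26 (PgrKO) and 10.6 FPKM (AdKO) in Diff, and none of its differences passed. Iigp1 fell in F/F_Diff from 1.69 and 1.33 FPKM to 0.0939 and 0.148, on 283 reads before and 22 after, a ratio of 12.5 between F/F_Con and F/F_Diff in pooled reads (95% exact interval 8.09 to 20.3, counting error only). Igtp fell as well (−0.93, SE 0.23, adjusted p = 0.0376), and Gbp7 was higher in PgrKO_Diff (0.98, SE 0.23, adjusted p = 0.0267).

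Of the remaining 6 members, Ifi27l2a, a small protein of the ISG12 family, passed in 3 comparisons. It was at 7.12 and 10.4 FPKM in the untreated F/F libraries, 17.2 and 22.1 in the untreated PgrKO libraries and 1.61 in the untreated AdKO library, and after treatment at 0.295 and 0.133 (F/F), 7.87 and 11.2 (PgrKO) and 1.09 FPKM (AdKO). Its F/F_Diff libraries held 3 reads in all, against 126 in F/F_Con, so the ratio of pooled reads was 40.8 with a 95% exact interval of 13.6 to 200.4 that covers counting error only. On the log2(FPKM + 1) scale it fell by 2.99 (SE 0.25, adjusted p = 0.00911) in F/F_Diff, was higher in PgrKO_Diff than in F/F_Diff (3.10, SE 0.25, adjusted p = 0.00288), and had a difference of responses of 2.02 (SE 0.36, adjusted p = 0.0459). Both AdKO libraries lay below F/F_Con (−1.89, SE 0.31, adjusted p = 0.0873 in AdKO_Con). Ifi27, its neighbor on chromosome 12, was at 30.4 and 22.0 (F/F), 57.6 and 48.3 (PgrKO) and 28.3 FPKM (AdKO) in Con, and at 16.0 and 19.0 (F/F), 33.3 and 32.5 (PgrKO) and 11.3 FPKM (AdKO) in Diff, and was higher in PgrKO_Diff (0.88, SE 0.19, adjusted p = 0.0203). Lgals3bp, a secreted glycoprotein that binds galectins and the most abundant member, was at 145 and 86.2 FPKM in the untreated F/F libraries, 143 and 181 in the untreated PgrKO libraries and 92.6 in the untreated AdKO library, and after treatment at 289.8 and 272 (F/F), 61.7 and 84.9 (PgrKO) and 105 FPKM (AdKO). It rose in F/F_Diff (1.32, SE 0.30, adjusted p = 0.0309), was lower in PgrKO_Diff than in F/F_Diff (−1.94, SE 0.30, adjusted p = 0.00723), and its responses differed by −2.46 (SE 0.42, adjusted p = 0.045). Ifi44, Xaf1 and Ifi35 passed in no comparison, with differences of 1.04 (SE 0.29), 1.08 (SE 0.36) and 0.53 (SE 0.19) between the Con groups.

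The letters of the ISRE did not mark 1 course. Between the Con groups the median log2 difference was 0.95 over the 17 members with a match and 0.64 over the 15 without, and all 4 members that passed had one. Of these 4, Ifit1, Ifit3 and Ifit3b entered the test through the groups where they are high. Ifit3 and Ifit3b also share their printed bases, so the 4 are not independent. Between the Diff groups these medians were 0.73 and 0.48. Oas3, with a match, and Ifit2 and Herc6, without, also passed the filter only through the PgrKO or AdKO groups. The medians with and without a match are therefore not set against each other in these comparisons of genotype. In the F/F response the medians were −0.28 and −0.52, with 4 members of each kind passing as lower. Of the 3 that rose in F/F_Diff, Cmpk2 and Lgals3bp had no match and Usp18 had no window, while Bst2 had 2 matches and was not called. These are descriptions of letters in 1 window per start.

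Upstream of the members, 20 interferon genes were listed and 1, Ifne, passed the filter on low values. Of these, 14 were at 0 FPKM in all 10 libraries, and the highest value of any other than Ifne was 0.658 FPKM, for Ifnb1 in F/F_Diff replicate 2. Ifne was at 2.52 and 1.63 (F/F), 26.9 and 11.2 (PgrKO) and 7.22 FPKM (AdKO) in Con, and at 1.75 and 2.32 (F/F), 26.3 and 7.97 (PgrKO) and 7.88 FPKM (AdKO) in Diff. All 6 PgrKO and AdKO libraries were above all 4 F/F libraries, and the 2 PgrKO replicates differed more than 2-fold in each state. The difference passed between the Diff groups (2.37, SE 0.60, adjusted p = 0.0336) and not between the Con groups (2.6, SE 0.60, adjusted p = 0.092), and the response in F/F was −0.01 (SE 0.60, adjusted p = 0.9996). The call between the Diff groups was lost in voom (adjusted p = 0.0621), in an unmoderated linear model (0.0988), without the filter (0.0794), with only the libraries compared (0.0844), with a crossed replicate block (0.0748) and without any 1 of the F/F libraries or PgrKO_Diff replicate 1 (0.0626 to 0.133). Ifne is a single-exon gene on chromosome 4 and its protein was not measured.

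All 6 interferon receptor genes passed the filter. Ifnar1 and Ifnar2, the chains of the type I receptor that also binds interferon ε, were at 18.05 and 17.0 and at 19.7 and 24.9 FPKM in F/F_Con. Ifnar2 fell in F/F_Diff to 9.88 and 6.44 FPKM (−1.36, SE 0.28, adjusted p = 0.0249) and was at 12.2 and 16.7 FPKM in PgrKO_Con and 11.6 and 17.0 in PgrKO_Diff, where its difference of responses did not pass (1.34, SE 0.40, adjusted p = 0.118). Ifngr2, a chain of the interferon γ receptor, was higher in PgrKO_Diff than in F/F_Diff (1.07, SE 0.23, adjusted p = 0.02), as was Ifngr1 (0.50, SE 0.13). Among the kinases and transcription factors outside the members, Jak1 (−0.62, SE 0.13, adjusted p = 0.027), Stat3 (−0.60, SE 0.10, adjusted p = 0.0158) and Irf1 (−0.94, SE 0.16, adjusted p = 0.0164) fell in F/F_Diff. Jak1 (1.09, SE 0.13, adjusted p = 0.00412) and Stat3 (0.80, SE 0.10, adjusted p = 0.00479) were higher in PgrKO_Diff than in F/F_Diff. Among 12 negative regulators tested, Socs3, an inhibitor of JAK kinases, fell in F/F_Diff (−1.77, SE 0.38, adjusted p = 0.028) and was higher in PgrKO_Diff (1.41, SE 0.38, adjusted p = 0.0413). Among 12 sensing adaptors, 2 fell in F/F_Diff (Myd88 and Aim2) and 2 were higher in PgrKO_Diff (Myd88 and Tbk1), as 6.89% and 11.7% of all genes were. All 12 were above 0 in PgrKO_Diff against F/F_Diff, with a median of 0.54, as were 8627 of 15817 genes. Cgas, Tlr7 and Tlr9 were below 1 FPKM in both F/F groups and passed the filter through the PgrKO or AdKO groups. The 12 are therefore not set against that share. Tlr7 was at 3.35 and 5.92 FPKM in PgrKO_Con 2 and PgrKO_Diff 2 and at most 0.308 FPKM in every other library.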

How the data were processed

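Organoid RNA was made into libraries with a Vazyme kit and sequenced on an Illumina instrument with paired ends. The deposited values are FPKM per gene, 1 column for each of the 10 libraries. The submitters' processing notes name HISAT2, edgeR and mm10, without versions, and the paper's methods name Tophat2, so the aligner behind the table is not settled. FPKM multiplied by GENCODE M21 exon length gave whole reads (within 0.01 read) for 99.9865 to 99.9955% of values and 11745730 to 17331804 reads per library. The precision is thus limited by few reads for low genes and by 1 or 2 libraries per group.

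Levels were tested as log2(FPKM + 1) with limma 3.58.1 (trend, R 4.3.3) in 1 fit of all libraries by group, over the 15817 of 54152 lines in which some group averaged 1 FPKM or more, with Benjamini-Hochberg adjustment. Fits of this kind were tested on simulated data. Members and lists were chosen with earlier results of these data known. Named with values in every library were the 2 most abundant members of each role class and, in each comparison, up to 4 passing members of smallest p. Other members are given more briefly, and Zbp1, Oasl1 and Mx1 were added after their values were seen. Alternatives were another fit, scaling, filter and pseudocount, voom on recovered reads, a replicate block and each library left out. Promoters came from RefSeq (GRCm38.p6). Some results are not reported here.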

Additional observations from a re-analysis of the deposited data

Results flagged for a closer look

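For 3 members the response to E2 and DBZ differed between PgrKO and F/F by the interaction term of the limma fit. The log2 difference of responses was −3.36 for Usp18 (SE 0.64, adjusted p = 0.0484), 2.02 for Ifi27l2a (SE 0.36, adjusted p = 0.0459) and −2.46 for Lgals3bp (SE 0.42, adjusted p = 0.045). None of the 3 passed when any 1 F/F or PgrKO library was left out.

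For 7 members the lone AdKO_Diff library lay below the lone AdKO_Con library, although both F/F_Diff libraries lay above both F/F_Con libraries. The log2 ratios between the AdKO libraries were −1.33 for Ifit3, −1.36 for Ifit3b, −0.14 for Mx1, −0.52 for Mx2, −0.25 for Rsad2, −0.31 for Usp18 and −0.65 for Ifi35. With 1 library per state these differences from the F/F response were not tested. AdKO_Diff was below AdKO_Con for 48.4% of all genes, and 5095 of 15817 rose without overlap in F/F. The share of genes with both is not given, so the 7 are not set against one. Ifit3 and Ifit3b passed the filter only through the PgrKO or AdKO groups. Ifit3 had 19 and 15 reads in F/F_Con and 25 and 20 in F/F_Diff, and Ifit3b 8 and 10 and then 16 and 12.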

How the results depend on the processing

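No member that passed changed sign under any alternative. Counts of passing members moved more than directions. In F/F_Diff against F/F_Con, 0 were higher and 6 lower in an unmoderated linear model, 1 and 7 without a filter, 1 and 8 with only the libraries compared, and 1 and 8 with PgrKO replicate 2 of both states left out, an alternative chosen after seeing the data. Leaving out 1 library gave 0 to 3 higher and 0 to 13 lower. In PgrKO_Con against F/F_Con, 0 were higher in the unmoderated model, without a filter, in voom, with only the libraries compared, with the replicate block and without PgrKO replicate 2, and 1 with a minimum of 5 FPKM or a pseudocount of 0.1, against 0 to 3 with 1 library left out. In PgrKO_Diff against F/F_Diff, 13 were higher and 1 lower in the unmoderated model, 1 lower without a filter, 11 higher with only the libraries compared and 7 higher and 1 lower without PgrKO replicate 2, against 5 to 21 higher and 1 to 2 lower with 1 library left out. For the difference of responses 0 were higher and 0 lower in the unmoderated model, without a filter, with a pseudocount of 0.1, in voom, with the replicate block, without PgrKO replicate 2 and with any 1 library left out, and 0 were lower with quantile normalization. In AdKO_Con against F/F_Con 2 were higher without a filter. Between the AdKO libraries, 26 were at least 2-fold lower and 1 higher with a pseudocount of 0.1, and 1 was higher with quantile normalization. The cause of these moves was not tested.

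Replicates that share a number did not deviate together in F/F_Diff against F/F_Con (correlation −0.05) or between genotypes (−0.17 in Con, −0.15 in Diff). In PgrKO_Diff against PgrKO_Con they did (0.53), so these libraries may be paired. No label says so, and the main fit used no pairing. With the replicate block 43 members were below 0 in PgrKO_Diff against PgrKO_Con, with a median of −0.71. With the replicate block 2 members were higher and 10 lower in F/F_Diff against F/F_Con, and 18 higher and 2 lower in PgrKO_Diff against F/F_Diff. With the numbers crossed, chosen after seeing the data, 0 were higher in PgrKO_Con against F/F_Con and 2 higher and 1 lower in PgrKO_Diff against F/F_Diff.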

Other observations

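A wider list of 73 interferon-stimulated genes that are not members, of which 67 passed the filter, was also counted. It shares a few genes, Irf1 among them, with the lists of kinases, regulators and adaptors above. In F/F_Diff against F/F_Con 16 were lower and 1, Tdrd7, was higher, with a median of −0.40, where 6.89% of all genes were lower and 12.4% higher. The immunoproteasome subunit Psmb8 (−1.72, SE 0.22, adjusted p = 0.0104), the peptide transporter Tap1 (−1.28, SE 0.23, adjusted p = 0.0166) and its partner Tapbp (−0.92, SE 0.13, adjusted p = 0.0112) were among the 16. Between PgrKO_Diff and F/F_Diff 24 were higher and 1, Ifitm1, was lower, where 11.7% of all genes were higher and 15.4% lower. Genes of this list that may have passed the filter only through the PgrKO or AdKO groups were not set apart. The 24 are therefore not set against that share. The difference of responses had a median of 0.25 over the 67, with 38 above 0, and −0.15 over the members. Slfn2, a member of the Schlafen family that restrains growth of immune cells in mice, was the only one of the 67 to pass between PgrKO_Con and F/F_Con. It was at 3.93 and 3.38 FPKM in the untreated F/F libraries, 22.9 and 15.8 in the untreated PgrKO libraries and 22.0 in the untreated AdKO library, and after treatment at 1.60 and 1.15 (F/F), 10.9 and 12.6 (PgrKO) and 8.93 FPKM (AdKO). All 6 PgrKO and AdKO libraries of Slfn2 were above all 4 F/F libraries, the same order as for Ifne, and it also passed in AdKO_Diff against F/F_Diff (2.07, SE 0.26, adjusted p = 0.0284). Cxcl10, a chemokine that attracts T cells, was higher in PgrKO_Diff (1.92, SE 0.35, adjusted p = 0.0128), while T and NK cell markers were at or near 0 in all libraries.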
